A study of Mus musculus with 8 samples.

Results

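The 10 genes described here are Nr4a1, Nr4a2, Nr4a3, Egr1, Egr2, Egr3, Klf2, Klf4, Klf6 and Klf10, transcription factors of the NR4A (3 genes), EGR (3) and KLF (4) families. They were found by gene symbol among the 55414 genes of the count table, and each symbol matched 1 row. The set was chosen by family, but with the higher levels of immediate early genes, Nr4a1 among them, in the Emb knockdown libraries already known. Those levels are therefore described and not tested. The libraries came from cells labelled enteric neurons, sorted with antibodies to CD24 and CD56 from dissociated mouse colon at an age of 4 weeks, with about 250 cells in a tube. There were 4 libraries labelled Emb knockdown and 4 labelled WT, from 4 mice of each genotype. Emb encodes embigin, a membrane partner of monocarboxylate transporters. The sources used here do not say how the knockdown was made or in which cells it acts. They do not tie each tube to a single mouse either, so the spread between libraries may be partly technical.

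Immediate early genes are transcribed within minutes of a stimulus because the factors that switch them on are already present and need only be phosphorylated. NR4A proteins are orphan nuclear receptors whose activity follows their amount, EGR proteins are zinc finger factors held in check by the co-repressors NAB1 and NAB2, and KLF proteins are zinc finger factors that bind CACCC and GC-rich sites. Growth factors, calcium, cyclic AMP and mechanical strain are known inducers, and so is the enzymatic dissociation of tissue, a step that the cells of all 8 libraries went through. Cyclic AMP and calcium act largely through the factor CREB at cyclic AMP response elements, the kinase ERK through SRF at CArG boxes, and the kinase ERK5 through MEF2 factors on Klf2 and Klf4.

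The promoters of the 3 NR4A genes are shown because the genes shared one motif there and differed in level. Any link between the motif and the levels was not tested. The windows are from RefSeq on GRCm38.p6 and run from 250 bases before to 50 after the annotated start, written 5′ to 3′ on the strand of the gene. Capitals mark each TGACG, the core that repeats in both arms of the cyclic AMP response element, on either strand (CGTCA on the other). The windows are chr15:101266596-101266895 on the plus strand for Nr4a1, chr2:57123954-57124253 on the minus strand for Nr4a2 and chr4:48045055-48045354 on the plus strand for Nr4a3. The Nr4a1 window lies inside the annotated span of the gene, which begins upstream at 101254269. It therefore belongs to a start within the gene, and the beginning of that span was not searched.
Nr4a1: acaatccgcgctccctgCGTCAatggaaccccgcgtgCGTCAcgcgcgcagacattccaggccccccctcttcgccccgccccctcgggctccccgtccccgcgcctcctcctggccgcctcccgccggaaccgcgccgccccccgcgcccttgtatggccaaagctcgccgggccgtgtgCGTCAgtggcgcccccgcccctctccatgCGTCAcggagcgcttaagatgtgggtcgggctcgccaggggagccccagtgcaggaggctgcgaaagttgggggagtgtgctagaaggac
Nr4a2: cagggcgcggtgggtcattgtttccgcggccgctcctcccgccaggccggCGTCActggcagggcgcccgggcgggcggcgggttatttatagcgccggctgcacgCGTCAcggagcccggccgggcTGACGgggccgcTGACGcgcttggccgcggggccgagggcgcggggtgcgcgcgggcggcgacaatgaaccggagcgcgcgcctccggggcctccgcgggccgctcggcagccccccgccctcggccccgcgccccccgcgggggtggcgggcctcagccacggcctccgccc
Nr4a3: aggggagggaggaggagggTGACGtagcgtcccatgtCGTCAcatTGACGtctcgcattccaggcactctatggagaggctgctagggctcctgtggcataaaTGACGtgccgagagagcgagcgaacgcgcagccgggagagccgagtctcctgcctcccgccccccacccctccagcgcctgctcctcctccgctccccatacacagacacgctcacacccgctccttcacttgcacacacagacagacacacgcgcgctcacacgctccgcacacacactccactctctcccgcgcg

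Each of the 3 windows held 4 TGACG cores, a number reached or passed by 0.234% of the 32544 different mouse promoter windows of the same length; 20.9% of all windows held at least 1. None of the 3 held the full palindrome TGACGTCA, which 1.8% of all windows did. Of the other members with a window in the table, Klf2 and Klf4 held 1 core each and Klf6 none. Egr1, Egr3 and Klf10 had no window here, so their promoters were not searched. A CArG box, the site of SRF, occurred in 1.64% of all windows and, among the members searched, only in those of Egr2. Egr2 has 5 windows, some of which overlap, and 4 of them held a CArG box. Its window chr10:67537619-67537918, on the plus strand, is shown as the first of those that held TGACG cores as well. Capitals mark the CArG box and 2 cores.
Egr2: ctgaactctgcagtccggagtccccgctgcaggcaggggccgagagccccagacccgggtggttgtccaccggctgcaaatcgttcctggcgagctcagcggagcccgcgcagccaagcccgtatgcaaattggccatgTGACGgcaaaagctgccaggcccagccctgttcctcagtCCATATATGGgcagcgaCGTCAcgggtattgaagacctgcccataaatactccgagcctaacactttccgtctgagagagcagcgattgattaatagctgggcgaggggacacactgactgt

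On either strand, the EGR site GCGNGGGCG, found in 5.6% of all windows, occurred in the windows of Nr4a1, Nr4a2 and Klf2 once each and of Klf4 at 2 positions. A MEF2 site, found in 3.16%, occurred once in those of Klf2 and Nr4a2. The TATA box TATAAA, found in 13.6%, occurred in that of Nr4a2, overlapping its MEF2 site. The AP-1 site TGANTCA and the NR4A element AAAGGTCA occurred in no window of the 7 members searched. The windows are rich in G and C (56 to 81.7%, against a median of 53% over all windows). The EGR site can overlap the GC box GGGCGG, which 35.9% of all windows held. A match is a description of these letters and was not tied to any measurement here.

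The libraries differed in depth between the genotypes. Total counts were 2024372 to 2712754 in Emb knockdown and 698930 to 954191 in WT, and the small-subunit ribosomal RNA gene Rn18s-rs5 took 29.2 to 42.5% of them in Emb knockdown and 3.55 to 13% in WT. Emb itself had 5, 25, 3 and 5 counts in Emb knockdown replicates 1 to 4 and 4, 6, 22 and 16 in WT replicates 1 to 4 (log2 fold change -1.24 ± 0.82, SE; edgeR adjusted p = 0.529). In TMM-normalised CPM, Emb knockdown replicate 2 had 13.3, inside the WT range of 5.15 to 22.5, and the other Emb knockdown libraries had 1.62 to 3.33. Of 11353 genes tested with edgeR, 0 (0%) had an adjusted p under 0.05; the lowest was 0.0719. At an unadjusted p under 0.05, 8.64% of genes were higher and 4.64% lower in Emb knockdown; these were 981 and 527 genes, against 375 and 1704 with library totals alone and 2060 and 141 when scaled to chemosensory receptor genes. The DESeq2 Wald test, which gave an adjusted p to 5904 genes, called 8.91% of them higher and 3.78% lower. Over all genes the log2 fold changes had a median of 0.04 with TMM scaling, -0.67 with library totals alone and 0.64 with receptor-gene scaling.

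Neuronal markers were not the leading markers in these libraries. Summed per exonic kilobase, 13 neuronal markers had 44.3 to 246 TMM-normalised CPM (counts relative to the library's size after edgeR's TMM correction) in Emb knockdown and 56.4 to 88.6 in WT. The 8 markers of enteric glia had 3680 to 5250 in Emb knockdown and 3450 to 9850 in WT. The 14 macrophage markers had 3460 to 5730 in Emb knockdown and 1120 to 3710 in WT. Macrophage markers differed in both directions: the complement gene C1qa averaged 3940 CPM in Emb knockdown and 1490 in WT, the integrin gene Itgam 393 in Emb knockdown and 3800 in WT, and the chemokine receptor gene Cx3cr1 277 in Emb knockdown and 1150 in WT, each without overlap. At an edgeR unadjusted p under 0.05, 6 of the 12 tested genes of that list were higher and 1 was lower, against 8.64% and 4.64% of all genes. Fibroblast and muscle markers summed to 283 to 536 CPM in Emb knockdown and 104 to 286 in WT, and lymphocyte markers to 97.1 to 122 in Emb knockdown and 60.5 to 176 in WT. No marker was at 0 in all libraries of either genotype. In such mixtures, fewer cells of a type and less RNA per cell cannot be told apart.

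Of the 10 genes, 8 had enough counts to be tested, and Nr4a2 and Egr2 did not. Nr4a1 passed the filter on low counts only through its Emb knockdown libraries. Among the 8, the groups did not overlap in 2 (Nr4a1 and Egr3), both higher in Emb knockdown. Over all genes tested, 4.03% were higher without overlap and 4.25% lower. Since these counts belong to the contrast with which the genes were picked, nothing is read from them. The median log2 fold change of the 8 was 1.5 and 7 were above 0, against 0.04 and 51.6% over all genes; with library totals alone it was 0.65 and 5 were above 0. Nr4a1, Egr1, Egr3, Klf2 and Klf6 had fitted folds of 2.26 or more, whereas Nr4a3, Klf4 and Klf10 had 0.605, 1.1 and 1.02, of which the last 2 were below 1 with library totals alone and at equal depth.

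**Figure D1:**
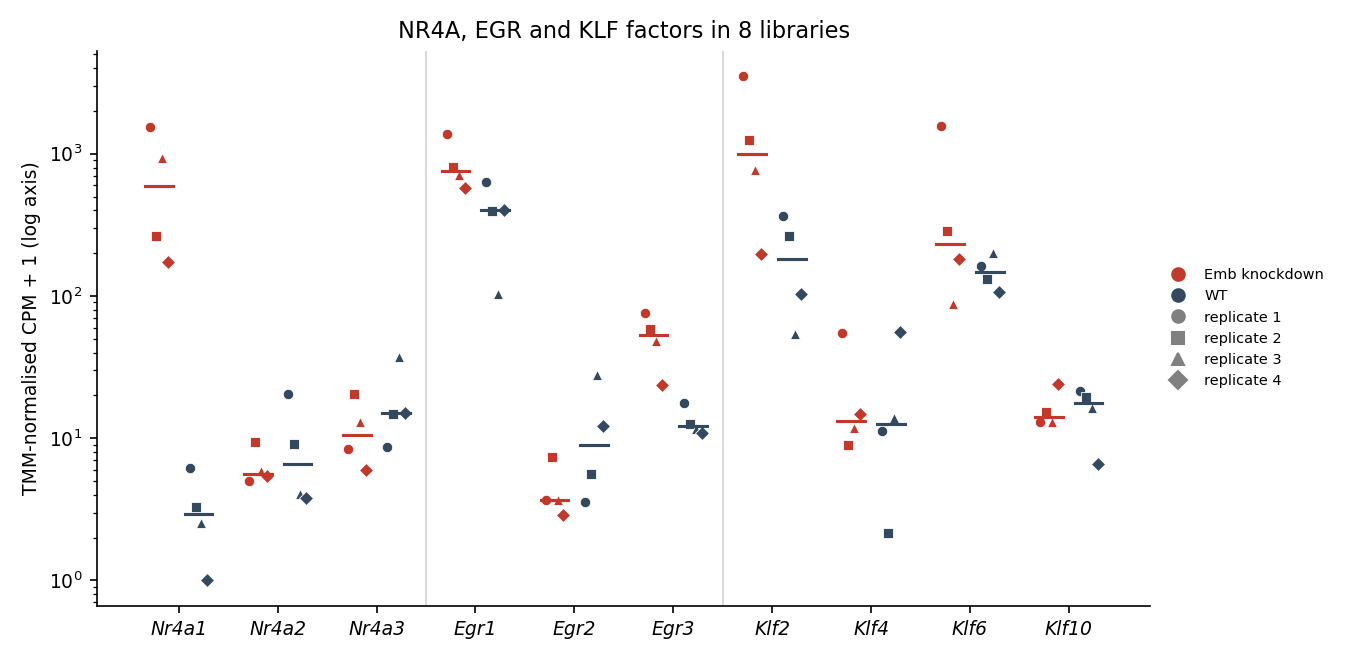
TMM-normalised CPM of the 10 genes in each library, plus 1, on a log axis; each symbol is a library, the symbol shape gives the replicate number and the line is the group median. Nr4a1 and Egr3 show no overlap between Emb knockdown and WT, while the other 8 genes overlap.

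Nr4a1, the NR4A factor also known as Nur77, had the widest separation. It had 2329, 492, 1712 and 274 counts in Emb knockdown replicates 1 to 4 and 4, 2, 2 and 0 counts in WT replicates 1 to 4. In TMM-normalised CPM these were 1550, 261, 925 and 172 in Emb knockdown and 5.15, 2.30, 1.52 and 0 in WT, where the 0 allows up to 4.22 CPM (3 counts). The lowest Emb knockdown library was far above the highest WT library. Summed and divided by the scaled library sizes, the ratio of Emb knockdown to WT was 323, with a 95% counting interval (Clopper-Pearson) of 164 to 749 that covers counting error only. The fitted log2 fold change was 8.29 ± 1.30 (SE), and 7.61 to 9.09 when 1 library was left out. After every library was thinned to 608076 counts outside Rn18s-rs5, Nr4a1 had 814, 205, 716 and 122 counts in Emb knockdown and 4, 2, 1 and 0 in WT, and the gap was still there at equal depth. The gene (ENSMUSG00000023034) lies on GRCm38 chromosome 15, 101254269 to 101274795, plus strand, with 3509 exonic bases, and no other annotated gene overlaps it.

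Whether a low level was above stray signal was read against 1504 chemosensory receptor genes (olfactory, vomeronasal and trace amine), most of which colon cells are not known to express. These genes took 0.262 to 0.622% of total counts in Emb knockdown and 0.833 to 1.16% in WT. A ratio of Emb knockdown to WT is therefore larger in multiples of this background than in CPM. Per exonic kilobase, Nr4a1 stood at 525, 77.5, 214 and 46.3 times these genes in Emb knockdown and at 0.862, 0.446, 0.283 and 0 times in WT. In WT it was thus at or under that background in all 4 libraries. Among protein-coding genes ranked by counts per kilobase, Nr4a1 was above 98.6 to 99.7% in Emb knockdown and above 0 to 53.9% in WT.

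The sister genes, on chromosome 2 at 57106830 to 57124003 (Nr4a2, minus strand) and chromosome 4 at 48045153 to 48086447 (Nr4a3, plus strand), were scarce in both genotypes. Nr4a2, also called Nurr1, a factor of dopaminergic neurons, had 6, 16, 9 and 7 counts in Emb knockdown and 15, 7, 4 and 2 in WT (5.43 ± 2.06 CPM in Emb knockdown and 8.30 ± 7.72 in WT, SD, n = 4 each). Nr4a3, also called Nor1, had 11, 37, 22 and 8 counts in Emb knockdown and 6, 12, 48 and 10 in WT (11 ± 6.44 CPM in Emb knockdown and 18.0 ± 12.7 in WT; log2 fold change -0.72 ± 0.70). The groups overlapped in both genes. At 0.461 to 3.99 times the receptor-gene background over the 8 libraries, neither Nr4a2 nor Nr4a3 stood clearly above it. The estimate for Nr4a3 was -0.05 without WT replicate 3, which held 36.5 CPM. Nr4a1 made up 90.3 to 99.3% of the counts of the family in Emb knockdown, and 0 to 16% in WT, where Nr4a2 and Nr4a3 made up the rest. Summed over the family, the level was 181 to 1560 CPM in Emb knockdown and 16.9 to 41.1 in WT. Whether the 4 TGACG cores shown in each NR4A promoter bear on these levels was not tested.

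**Figure D2:**
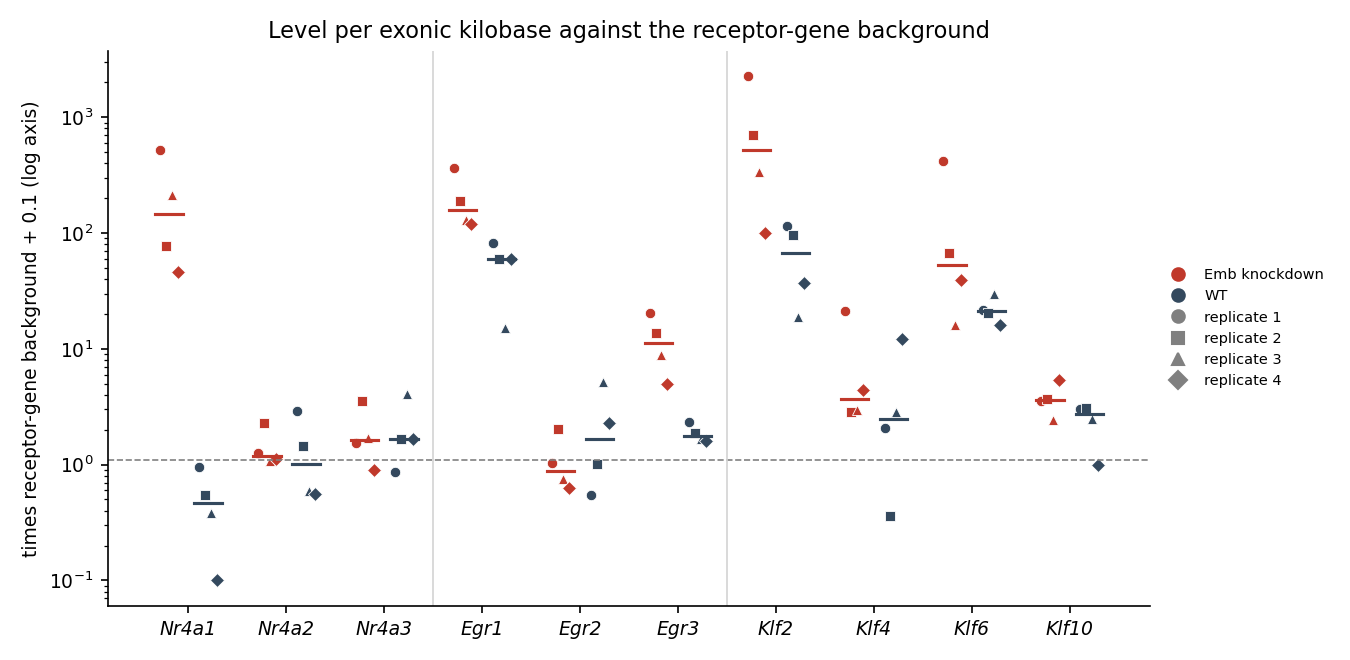
Counts per exonic kilobase of each gene divided by those of 1504 receptor genes in the same library, plus 0.1, on a log axis, with symbols as in the plot of CPM and lines at group medians. The dashed line marks equality with the receptor genes; Egr1, Klf2 and Klf6 lie well above it in all 8 libraries, and Nr4a1 only in Emb knockdown.

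Egr1, the founding EGR factor and a standard reporter of ERK signalling (chromosome 18, 34859823 to 34864984, plus strand), was abundant in both genotypes. It had 1380, 806, 711 and 571 CPM in Emb knockdown and 630, 395, 103 and 401 in WT. In 3 of 4 Emb knockdown libraries it exceeded every WT library; Emb knockdown replicate 4 lay below WT replicate 1. The means were 866 ± 353 CPM in Emb knockdown and 382 ± 216 in WT (SD, n = 4 each), with a log2 fold change of 1.18 ± 0.72 that was 0.49 with library totals alone and 0.92 without WT replicate 3. Egr1 stood at 120 to 364 times the receptor-gene background in Emb knockdown and 15.1 to 82.7 times in WT. It ranked above at least 98.4% of protein-coding genes in each of the 8 libraries. After thinning to equal depth it had 761, 592, 545 and 400 counts in Emb knockdown and 428, 279, 98 and 285 in WT, and the groups still overlapped.

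Egr3, an EGR factor of muscle spindles and lymphocytes, lies on chromosome 14 at 70077203 to 70082614, plus strand. It was less abundant than Egr1 but separated the genotypes. It had 112, 108, 88 and 36 counts in Emb knockdown and 13, 10, 14 and 7 in WT. In CPM these were 74.6, 57.3, 47.6 and 22.6 in Emb knockdown and 16.7, 11.5, 10.7 and 9.84 in WT. All 4 Emb knockdown libraries exceeded all WT libraries (50.5 ± 21.7 CPM in Emb knockdown and 12.2 ± 3.11 in WT, SD, n = 4 each; log2 fold change 2.05 ± 0.59). With library totals alone Emb knockdown replicate 4 entered the WT range and the estimate was 1.30. Egr3 stood at 4.84 to 20.1 times the receptor-gene background in Emb knockdown and 1.49 to 2.23 times in WT, close to the background there.

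Egr2, the EGR factor of Schwann cell myelination also called Krox20 (chromosome 10, 67535475 to 67542188, plus strand), had 4, 12, 5 and 3 counts in Emb knockdown and 2, 4, 35 and 8 in WT. It was not tested. WT replicate 3 alone held 26.6 CPM, against 1.88 to 11.2 in the other 7 libraries, and the groups overlapped (3.40 ± 2.01 CPM in Emb knockdown and 11.3 ± 10.9 in WT, SD, n = 4 each). That library was also the one with the lowest Egr1, so that Egr2 took 18.9% of the EGR counts there, against 0.183 to 0.731% in Emb knockdown and 0.396 to 2.67% in the other WT libraries. Egr2 stood at 0.523 to 1.95 times the receptor-gene background in Emb knockdown and 0.445 to 5.12 times in WT.

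Klf2, a factor of quiescent endothelium and lymphocytes, lies on chromosome 8 at 72319033 to 72321656, plus strand, and had the highest mean level per kilobase among the members in both genotypes. By library, Egr1 was above it in Emb knockdown replicate 4 and WT replicate 4, and Klf6 in WT replicate 3. It had 3520, 1240, 764 and 196 CPM in Emb knockdown replicates 1 to 4 and 363, 261, 53.3 and 103 CPM in WT replicates 1 to 4. In 3 of 4 Emb knockdown libraries it exceeded every WT library, and replicate 4 lay inside the WT range. The spread was wide, with an 18-fold range within Emb knockdown and a 6.81-fold range within WT. The means were 1430 ± 1460 CPM in Emb knockdown and 195 ± 143 in WT (SD, n = 4 each; log2 fold change 2.88 ± 0.98). The estimate was 1.93 without Emb knockdown replicate 1. With replicate 4 of Emb knockdown left out, the groups of Klf2 and of Egr1 no longer overlapped, though fewer libraries make overlap less likely for any gene.

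Klf2 is known from endothelium, so its level is set beside the 8 endothelial markers, led by Pecam1, an adhesion molecule of the vessel wall. Their summed level was 402, 240, 1490 and 321 CPM in Emb knockdown and 1690, 1530, 577 and 2100 in WT. Pecam1 made up much of that sum, with 117, 116, 1330 and 197 CPM in Emb knockdown and 1250, 1290, 339 and 1950 in WT. Cdh5, the cadherin gene of endothelial junctions, had 149, 9.54, 17.8 and 3.76 CPM in Emb knockdown and 0, 48.3, 3.8 and 12.6 in WT. Emb knockdown replicate 1, the library with the most Klf2, was thus below every WT library for Pecam1 and above every other library for Cdh5. The macrophage markers summed to 4890 to 7320 CPM in Emb knockdown and 3090 to 9170 in WT, with overlap, although single markers differed in both directions. The part of any other cell type in these levels was not tested.

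Klf6, a widely expressed factor induced by tissue injury (chromosome 13, 5861482 to 5870394, plus strand), was abundant in all libraries but did not separate the genotypes. It had 1560, 285, 86.5 and 180 CPM in Emb knockdown and 162, 131, 200 and 105 in WT. Emb knockdown replicate 1 was far above the rest, and replicate 3 was below every WT library. The log2 fold change of Klf6 was 1.82 ± 0.93, but 0.30 without Emb knockdown replicate 1 and 0.80 with library totals alone. Klf6 stood at 16.0 to 422 times the receptor-gene background in Emb knockdown and 16.0 to 29.8 times in WT.

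Klf4, a factor of goblet cells and monocytes and one of the reprogramming factors (chromosome 4, 55527143 to 55532466, minus strand), had 54.0, 7.95, 10.8 and 13.8 CPM in Emb knockdown and 10.3, 1.15, 12.9 and 54.8 in WT. Each genotype had 1 high library, Emb knockdown replicate 1 and WT replicate 4, and the groups overlapped throughout (log2 fold change 0.14 ± 0.96). The estimate was -0.82 without Emb knockdown replicate 1, 1.47 without WT replicate 4 and -0.69 with library totals alone, so its sign changed with single libraries and with the scaling. The epithelial markers, goblet cell Muc2 among them, summed to 181 CPM in Emb knockdown replicate 1 and 209 in WT replicate 4, inside the range of the other libraries.

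Klf10, a factor induced by transforming growth factor beta, lies on chromosome 15 at 38291463 to 38300706, minus strand. Its group means were the closest among the members tested. It had 12.0, 14.3, 11.9 and 23.2 CPM in Emb knockdown and 20.6, 18.4, 15.2 and 5.62 in WT, with the groups overlapping. The means were 15.3 ± 5.34 CPM in Emb knockdown and 15 ± 6.60 in WT (SD, n = 4 each), and the log2 fold change was 0.03 ± 0.61, or -0.68 with library totals alone, close to the median of all genes under that scaling. It stood at 2.31 to 5.25 times the receptor-gene background in Emb knockdown and 0.895 to 3.00 times in WT.

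**Figure D3:**
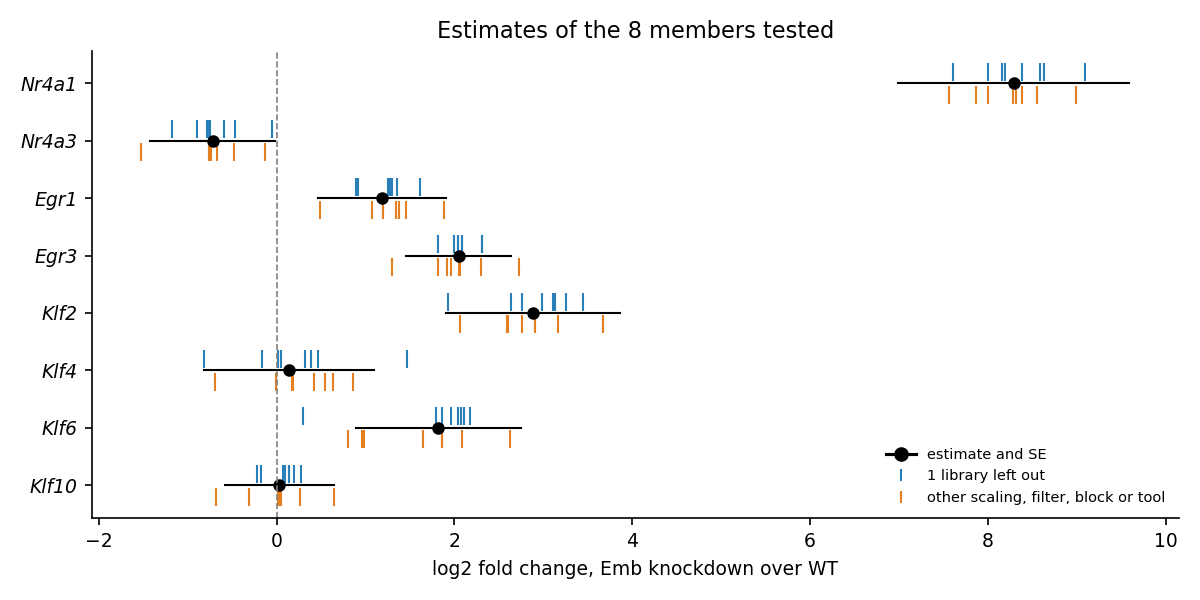
Log2 fold change of Emb knockdown over WT for the 8 members tested, with bars of 1 SE; blue ticks above each point leave out 1 library and orange ticks below use another scaling, filter, depth, block or tool. Nr4a1 stays between 7.56 and 9.09 and Egr3 between 1.30 and 2.73, whereas Klf4 and Klf10 fall on both sides of 0.

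Ordered by mean CPM per kilobase, the members in Emb knockdown ran from Klf2 (774) through Nr4a1 (207), Egr1 (193), Klf6 (120), Egr3 (11.5), Klf4 (7.09), Klf10 (3.67), Nr4a3 (1.83) and Nr4a2 (1.34) to Egr2 (1.00). In WT the order was Klf2 (106), Egr1 (85.3), Klf6 (34.1), Klf4 (6.49), Klf10 (3.58), Egr2 (3.31), Nr4a3 (3.01), Egr3 (2.76), Nr4a2 (2.04) and Nr4a1 (0.639). The library ranges of neighbours in either order overlapped, apart from Klf6 and Egr3 in Emb knockdown and Klf6 and Klf4 in WT. Nr4a1 was in the second place in Emb knockdown and in the last in WT, while Klf2, Egr1 and Klf6 were among the first 4 in both.

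Within a genotype the members did not all move together. Among the Emb knockdown libraries, Egr1, Egr3 and Klf2 had the same order, highest in replicate 1, then 2, 3 and 4, while Nr4a1 was higher in replicate 3 than in replicate 2. Klf2 deviated from the mean log2 CPM of Emb knockdown by 1.97 in replicate 1 and by -2.19 in replicate 4, and Klf6 by 2.43 in replicate 1. In WT, replicate 1 was highest for Nr4a1, Nr4a2, Egr1, Egr3, Klf2 and Klf10. WT replicate 3 was lowest for Egr1 and Klf2, with deviations of -1.61 and -1.48, and highest for Nr4a3, Egr2 and Klf6. Over the 8 libraries, after each group mean was taken off, Klf2 correlated with Egr3 at 0.91, with Egr1 at 0.80 and with Nr4a1 at 0.74, while Egr1 and Nr4a3 correlated at -0.66 (Pearson, described only). These points share library depth and scaling.

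**Figure D4:**
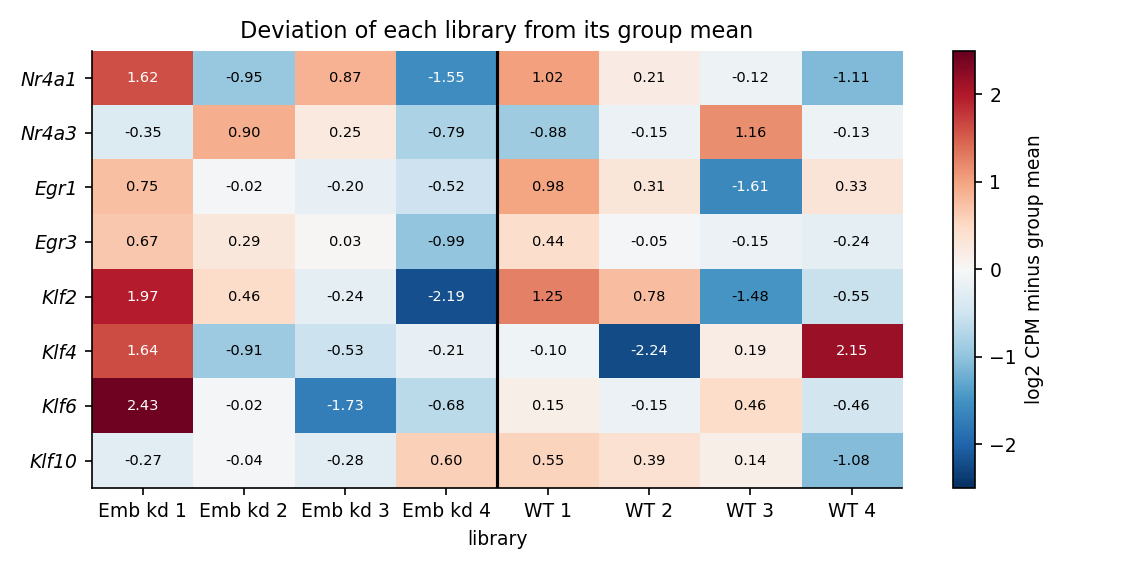
Deviation of log2 CPM from the mean of its own genotype for the 8 members tested, with a column for each library and red for above the mean. Emb knockdown replicate 1 is red for 6 of the 8 genes, and WT replicate 3 is blue for Egr1 and Klf2 but red for Nr4a3 and Klf6.

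The other genes of these pathways were set beside the members as 5 lists of 113 genes, of which 90 were tested; none passed the edgeR adjusted p of 0.05 in either direction. Of the 15 other EGR and KLF genes, 11 were tested, 1 was higher at an unadjusted p under 0.05 and none was lower, and the median log2 fold change was 0.00. Over all genes, 8.64% were higher and 4.64% lower, so the count is about the background. DESeq2 called none of them. Klf9, a glucocorticoid-induced factor, had 33.5 ± 17.4 CPM in Emb knockdown and 11.7 ± 9.36 in WT (log2 fold change 1.54 ± 0.69, edgeR adjusted p = 0.372). Klf5, a factor of proliferating gut crypts, had 210 ± 188 CPM in Emb knockdown and 49.3 ± 38.0 in WT (2.09 ± 0.98, adjusted p = 0.380). Klf7, a neuronal member of the family, was at 1.21 ± 0.81 (2.41 without WT replicate 1) and Klf3 at -0.93 ± 0.66 (-0.08 without WT replicate 1). Egr4, the remaining EGR gene, had 12, 11, 5 and 31 counts in Emb knockdown and 6, 2, 12 and 12 in WT.

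Of the 28 upstream factors and kinases, 24 were tested, with 3 higher and 1 lower at an unadjusted p under 0.05, a median of 0.33 and 3 calls by DESeq2 (2 higher, 1 lower). These counts are near the shares over all genes (8.64% higher and 4.64% lower at that p, 8.91% and 3.78% by DESeq2). DESeq2 gave an adjusted p to only some of the 24. Mef2c, a MEF2 factor that ERK5 activates, had 1140 ± 1580 CPM in Emb knockdown and 73.5 ± 44.6 in WT without overlap (log2 fold change 3.95 ± 1.12, edgeR adjusted p = 0.295; 2.29 without Emb knockdown replicate 4). Map2k1, a kinase that activates ERK, had 5.84 ± 3.39 CPM in Emb knockdown and 29.4 ± 17 in WT (-2.30 ± 0.72, adjusted p = 0.297). Rps6ka3, a kinase of CREB, was at 2.15 ± 0.84 (1.16 without Emb knockdown replicate 4) and Mapk3, the gene of ERK1, at 3.77 ± 1.59 (2.37 without Emb knockdown replicate 3). Srf had too few counts to be tested, with 52 in all in Emb knockdown and 24 in WT.

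Of the 17 partners and co-repressors, 14 were tested; 1 was higher and none lower at an unadjusted p under 0.05, near the 8.64% higher over all genes, and the median was 0.69. Ncor1, a nuclear receptor co-repressor, had 129 ± 44.9 CPM in Emb knockdown and 45.1 ± 18.1 in WT without overlap (log2 fold change 1.52 ± 0.62, edgeR adjusted p = 0.334), and DESeq2 called it alone. The histone deacetylase gene Hdac3 was at 1.74 ± 0.89 (2.65 without WT replicate 3). It had too few counts to be tested without Emb knockdown replicate 3 or 4. The demethylase gene Kdm1a was at 1.86 ± 1.06 (0.09 without Emb knockdown replicate 1). Rxrg, of the retinoid receptors that pair with some NR4A proteins, was at 1.09 ± 1.01 (0.60 without Emb knockdown replicate 3, 3.08 without WT replicate 4). The EGR co-repressor gene Nab1 had 120 ± 35.5 CPM in Emb knockdown and 102 ± 24.6 in WT (0.23 ± 0.60). Nab2, the inducible co-repressor and itself an EGR target, had 5 counts in all in Emb knockdown and 12 in WT.

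Of 25 known targets of the 3 families, 18 were tested, with 1 higher and 1 lower at an unadjusted p under 0.05, a median of 0.27 and 1 call by DESeq2, of F3. With so few genes, both counts are near the shares over all genes (8.64% higher and 4.64% lower at that p). F3, the gene of tissue factor and an EGR1 target, had 300 ± 219 CPM in Emb knockdown and 46.8 ± 25.9 in WT (log2 fold change 2.68 ± 0.83, edgeR adjusted p = 0.295), with overlap. The cell cycle inhibitor gene Cdkn1a was at 1.35 ± 0.80 (0.56 without Emb knockdown replicate 2).

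Of 28 other immediate early genes, 23 were tested; 13 were higher at an unadjusted p under 0.05, none was lower, and 10 were higher without overlap, with a median of 2.40. Over all genes, 8.64% were higher at that p and 4.03% were higher without overlap. The list was picked with earlier results of these libraries known, so its direction is no independent evidence. DESeq2 called 11 of them higher, against 8.91% of the genes to which it gave an adjusted p. Their summed level was 35900, 15900, 13900 and 9290 CPM in Emb knockdown and 6980, 3150, 1940 and 3090 in WT, the same order in Emb knockdown as that of Egr1, Egr3 and Klf2. Jun, Dusp1, Zfp36l1 and Fos led by p, at 3.08 ± 0.83, 2.95 ± 0.81, 3.60 ± 0.99 and 3.14 ± 0.87 (edgeR adjusted p = 0.294 each). Without Emb knockdown replicate 1, 10 of 23 were higher at that p, the median was 1.39 and Zfp36l1 was at 2.18.

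**Figure D5:**
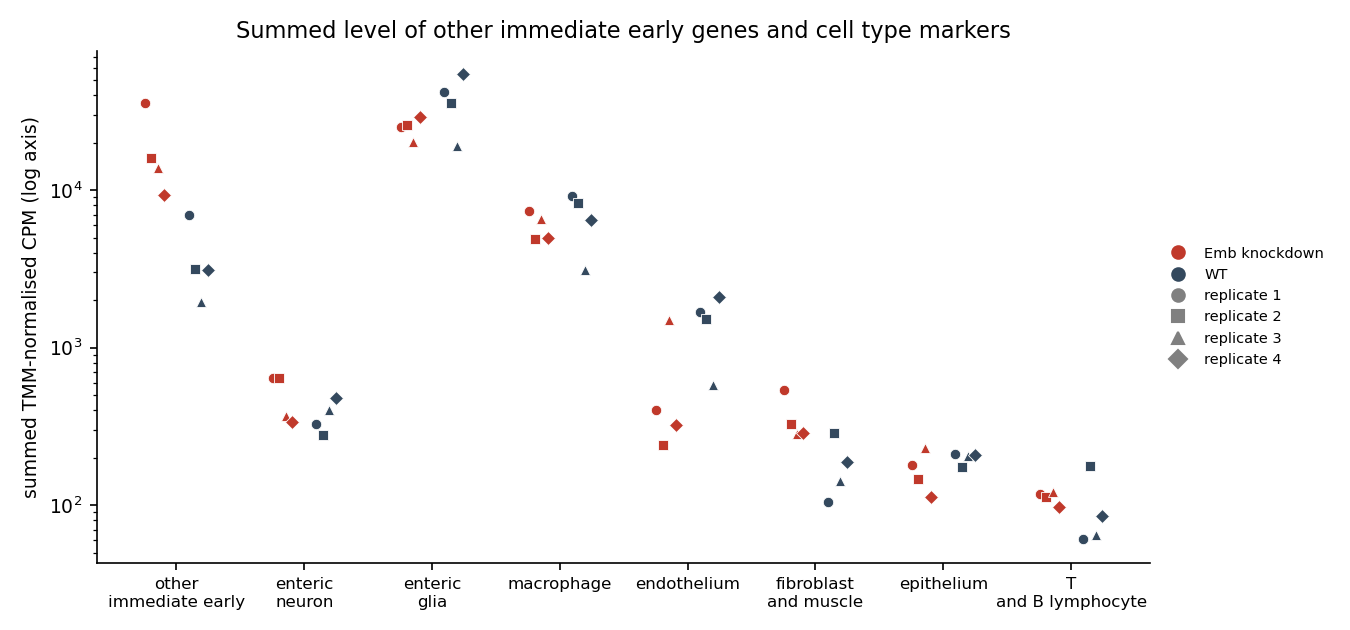
Summed TMM-normalised CPM of 28 other immediate early genes and of the markers of 7 cell types in each library, on a log axis, with symbols as in the plot of CPM. The immediate early genes separate Emb knockdown (9290 to 35900) from WT (1940 to 6980), whereas the sums of glial, macrophage, endothelial and neuronal markers overlap. Of 12 macrophage markers tested singly, 4 were higher and 2 lower in Emb knockdown without overlap, against 4.03% and 4.25% of all genes.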

How the data were processed

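The counts analysed are the whole numbers per gene that the authors deposited for 8 Smart-seq libraries, per the labels 4 from Emb knockdown and 4 from WT mice. The submitters' processing notes name cutadapt and mm10. An aligner, a counter or a strand setting was not given in the sources used here.

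Genes were filtered with filterByExpr (minimum count 10, minimum total 15), scaled with TMM factors and fitted with the quasi-likelihood model of edgeR 4.0.16 in R 4.3.3, with genotype as the only term. P-values were adjusted by Benjamini-Hochberg over 11353 genes. Log2 CPM used a prior count of 2. DESeq2 1.42.0 and limma 3.58.1 voom were alternatives. Standard errors come from the fold change and the F statistic. The fit was tested on simulated data. Gene spans and exonic lengths are from GENCODE M21 on GRCm38, the assembly behind mm10; promoters are from RefSeq.

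The members, lists and alternatives were chosen with earlier results of these data known. Named beside the members are up to 4 genes of each list by smallest unadjusted p, the most abundant genes of the marker lists, 6 genes by likeness of pattern, and Egr4, Srf, Nab1 and Nab2, chosen after their values were seen; some genes that this rule names are not reported here. Replicate numbers were not taken as pairs.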

Additional observations from a re-analysis of the deposited data

Results flagged for a closer look

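In 2 of the 20 combinations of a gene and a genotype, each of 4 libraries, 1 library stood far from the others by Dixon's gap test at its 95% level; chance alone gives about 1 such group in 20. Both were Emb knockdown replicate 1. Klf6 had 1560 CPM there, against 86.5 to 285 in the other Emb knockdown libraries and 105 to 200 in WT. Klf4 had 54.0 CPM there, against 7.95 to 13.8 in the other Emb knockdown libraries and 1.15 to 54.8 in WT. The cause was not tested.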

How the results depend on the processing

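Members higher without overlap numbered 2 with TMM scaling, DESeq2 size factors and equal depth, 3 with receptor-gene scaling (Egr1 added) and 1 with library totals alone (Egr3 lost). With 1 library left out the number was 2 to 4. It was 4 without Emb knockdown replicate 4, with Egr1 and Klf2 added. Fewer libraries make overlap less likely for any gene. The share over all genes is given here only for all 8 libraries with TMM scaling, so nothing is read from these numbers. The median log2 fold change of the tested members, 1.5, was 0.65 with library totals alone, 2.26 with receptor-gene scaling, and 0.60 (without Emb knockdown replicate 1) to 1.78 with 1 library left out. Genes past the adjusted p numbered 0 with edgeR, 2 with library totals alone, 910 without a filter, 749 with DESeq2 and 0 with voom. Of the pathway genes 0, 0, 12, 16 and 0 passed. DESeq2 gave no adjusted p to some pathway genes, so its 16 come from fewer than the 90 tested. The fit without a filter tested 48530 genes; the cause of these differences was not tested. Same-numbered libraries of the genotypes deviated together at correlations of 0.0113 to 0.0337, so the numbers are not taken as pairs; 3 of 4 Emb knockdown libraries correlated best with the WT library of their number. With the replicate block the members' median was 1.16, 0 genes passed, and 629 and 289 were higher and lower at an unadjusted p under 0.05. Leaving out each library for the other immediate early genes was added after seeing the data and gave 10 to 14 genes. Klf4 and Klf10 changed sign with library totals alone (-0.69, -0.68), at equal depth (-0.01, -0.31) and without some single libraries. Nr4a2, Nr4a3, Egr2, Klf4 and Klf10 rest on 1 to 81 counts a library, which limits their precision.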

Other observations

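Among 5301 genes with a mean log2 CPM of at least 4, those whose deviations from their genotype's mean were most like the average of the tested members over the 8 libraries included Agpat3 (Pearson 0.985, Spearman 0.929), Nlgn2 (0.970, 0.738), Aplp2 (0.963, 0.833), Sorbs2 (0.963, 0.952) and Csrnp1 (0.963, 0.690). These are the top of a ranking over many genes and few libraries, and are given as a description. Csrnp1, a nuclear protein induced as an early response gene, had 1540 CPM in Emb knockdown replicate 1, 3.13 to 33.0 in the other Emb knockdown libraries and 4.56 to 20.6 in WT. Sorbs2, an adaptor protein of the cytoskeleton, had 929, 437, 342 and 170 CPM in Emb knockdown and 115, 81.6, 72.3 and 99.8 in WT. In both genes, as in the members' average, Emb knockdown replicate 1 was highest and replicate 4 lowest.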
